A study of Homo sapiens with 4 samples.

Results

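The genes described here encode the machinery that builds and gates the primary cilium: intraflagellar transport (IFT) particles, the dynein-2 motor, the BBSome, the transition zone and 4 proteins of ciliary cargo and the basal body. They are the rows of a gene-level RNA-seq count table whose symbol is in a list of 52 names, and all 52 were found among the 28930 symbols of the table. The list follows known complexes, but its members were chosen by symbol after the fold changes of knockdown over control in these same libraries were known, so the counts, medians and p-values below describe these libraries and are not independent evidence for a direction. All 4 libraries come from MDA-MB-231, an established line of mesenchymal, hormone receptor-negative human breast cancer cells. One group of 2 libraries was given an siRNA against hTrmt13 (the tRNA ribose methyltransferase gene TRMT13), and the other group of 2 a control siRNA, in otherwise the same line. No source used here gives the siRNA sequence, dose or time, or says whether replicates were separate cultures. The p-values thus set the difference between groups only against the spread among these samples, and that spread may be technical.

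The primary cilium is a single microtubule-based projection that many non-dividing cells raise from the mother centriole and take down before division. IFT-B trains, pulled by kinesin-2, carry tubulin and other cargo to the tip, IFT-A trains with dynein-2 bring material back, the BBSome rides on the trains as an adaptor that moves membrane receptors, and the transition zone at the base acts as a gate. Many of these genes were identified through human ciliopathies such as Bardet-Biedl, Joubert and Meckel syndromes, and Hedgehog signalling in vertebrates runs through this organelle.

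Total counts ran from 10606149 to 13098985 in the knockdown libraries and from 9777267 to 12851510 in the control libraries, and levels are given as CPM, the count scaled to the library's total with edgeR's TMM factors. A level of 1 CPM rested on 9.58 to 13.4 counts. The targeted gene TRMT13 had 3.52 and 4.79 CPM in the knockdown libraries, against 14.9 and 18.9 CPM in the control libraries (log2 fold change −2.02, SE 0.34, edgeR quasi-likelihood adjusted p = 0.0399), so each library went with its label. The markers of the line that should be present were present: VIM, CD44, EGFR, AXL and MET together held 2942 and 3144 CPM in the knockdown libraries and 4173 and 4733 CPM in the control libraries, while the hormone receptor genes ESR1 and PGR had no count in any library. Of these markers EGFR, the epidermal growth factor receptor gene, fell, with 303 and 404 CPM in the knockdown and 1064 and 1361 CPM in the control (−1.78, edgeR adjusted p = 0.0303). CD44 (−0.79), MET (−0.78) and AXL (−0.72) also had both knockdown libraries below both control libraries without passing the edgeR threshold (DESeq2 called 2 of the 5 lower), and VIM stood at 0.02. Leukocyte markers summed to at most 1.12 CPM in a knockdown library and 1.04 CPM in a control library, and endothelial markers to at most 2.853 CPM in the knockdown and 6.99 CPM in the control. Fibroblast markers summed to 38.1 and 20.4 CPM in the knockdown and 46.2 and 33.9 CPM in the control, nearly all of it COL1A1, while DCN had no count.

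Most of the ciliary genes stood higher in the knockdown, by modest amounts. Of the 52, 51 passed the filter on low counts and were tested, and 46 of these 51 had a positive log2 fold change (90.2%), against 50.4% of the 13022 genes tested. Their median log2 fold change was 0.60, where the median over all genes tested was 0.0053. Only IFT27 and IFT57 rose past the threshold of an edgeR adjusted p under 0.05, which is 3.92% of the 51, beside 1.03% of all genes called higher. None was called lower, beside 1.96% of all genes, and none of the 51 had an unadjusted p under 0.05 in that direction, beside 12.5% of all genes. DESeq2 called 9 of the 51 higher, beside 3.52% of all genes, and 0 lower, beside 5.15%.

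In the single libraries, 37 of the 51 genes (72.5%) had both knockdown values above both control values, beside 27.5% of all genes tested. In 1 gene, TTC21B, both lay below, beside 26.8% of all genes tested. In the other 13 (25.5%) the groups overlapped, beside 45.7% of all genes tested. At an unadjusted p under 0.05 there were 21 of the 51 (41.2%), all higher, beside 11.5% of all genes tested. The same shares of all genes stand beside the counts for single complexes and lists below. Leaving out 1 library moved single values, in fits where the lone library of a group is assumed to vary like the pair of the other. The log2 fold change of B9D1 was 1.26 without knockdown replicate 1 and 1.78 without knockdown replicate 2. In the same order it was 1.18 and 1.43 for TCTN1, 0.96 and 0.24 for DYNC2H1, and 0.73 and 1.27 for CEP164. In a culture measured in bulk, a change in the share of cells in one state and a change of the RNA per cell cannot be told apart.

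**Figure D1:**
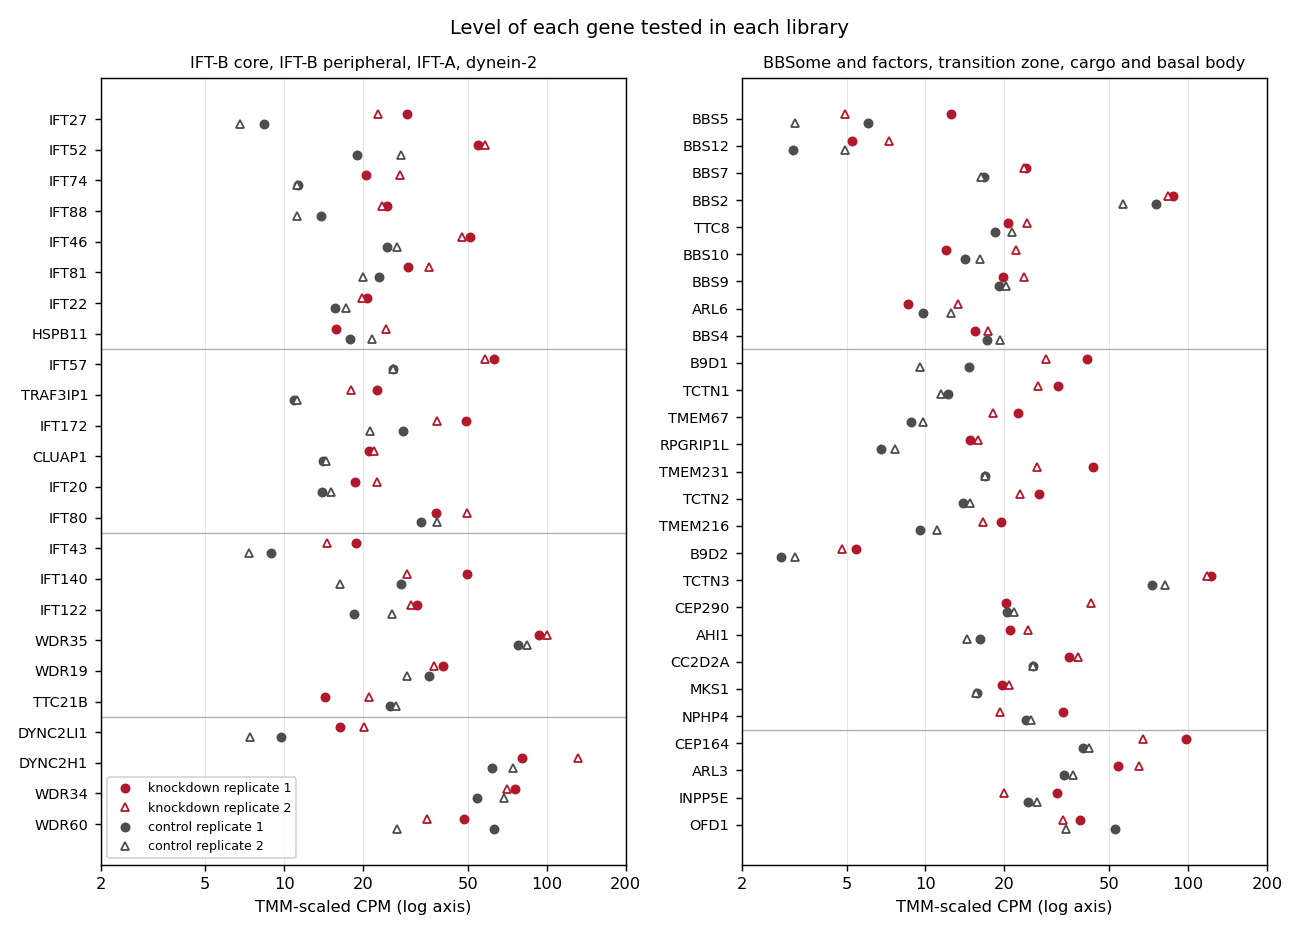
Level of each of the 51 tested genes in TMM-scaled CPM on a log axis, 1 row per gene, ordered within each complex by fold change, with knockdown libraries in red and control libraries in grey (filled circles replicate 1, open triangles replicate 2). For IFT27 the knockdown libraries sit at 29.4 and 22.8 CPM and the control libraries at 8.35 and 6.81 CPM, and for most rows of the IFT-B and transition zone blocks the red marks lie to the right of the grey ones.

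Some of these genes share a sequence feature in their promoters. RFX transcription factors, which drive ciliary genes in animals from worms to mammals, bind the X-box, made of the half-sites GTTNCC or GTTNCT and GGNAAC or AGNAAC, separated here by 0 to 3 bases. The pattern is its own reverse complement, so a search of one strand covers both. In the RefSeq promoters of GRCh38.p14, from 250 bases before to 50 after each gene's start, 47 of the 52 genes had an entry (3 of them under a newer symbol), and IFT22, WDR35, BBS9, TMEM67 and TCTN2 were not matched. An X-box of this form stood in 5 of the 47 (10.6%), beside 160 of 10251 promoters of tested genes (1.56%). This is a description of letters in a window and no measure of binding, and an X-box with other letters or in another place would not be found.

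The 5 X-boxes are shown because they are a feature that a few of these genes share, and promoter sequence did not enter the choice of the list. The list was drawn from ciliary complexes, and RFX factors drive ciliary genes, so the choice is not independent of this motif. Capitals mark the X-box, and the lower-case letters are its flanks, read 5′ to 3′ on the strand of the gene.
IFT122 (chr3:129440206-129440232, plus strand): atgtacGTTGCCAGGGGTAACgcaggt
ARL6 (chr3:97764710-97764757, plus strand): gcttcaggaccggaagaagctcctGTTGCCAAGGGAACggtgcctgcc
TCTN1 (chr12:110614123-110614147, plus strand): gtcgcgGTTGCCGGGCAACgcgctg
TCTN3 (chr10:95694106-95694166, minus strand): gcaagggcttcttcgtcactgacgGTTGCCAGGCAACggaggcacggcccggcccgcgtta
B9D2 (chr19:41364138-41364163, minus strand): cctgctGTTGCCCCAGCAACaaccac

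The ARL6 element began 24 bases before the annotated start, that of TCTN3 215 bases before it, those of IFT122 and B9D2 spanned the start, and that of TCTN1 began at it. The log2 fold changes of these 5 genes were 0.50 for IFT122, −0.03 for ARL6, 1.31 for TCTN1, 0.64 for TCTN3 and 0.76 for B9D2, and none passed the adjusted threshold. Of the 3 complexes with a match, the transition zone held 3 in 12 promoters, the BBSome group 1 in 9 and IFT-A 1 in 5, while the 7 promoters of IFT-B core genes and the 6 of peripheral IFT-B genes held none, as did those of dynein-2 and of the cargo and basal body group.

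IFT-B core genes, which form the spine of the anterograde train, had the highest median among the complexes, a log2 fold change of 0.94 over 8 genes, all positive. IFT27, a small Rab-like GTPase of the train that also links it to the BBSome, had 29.4 and 22.8 CPM in the knockdown libraries, against 8.35 and 6.81 CPM in the control libraries. It rose 3.45-fold (log2 fold change 1.79, SE 0.30, edgeR adjusted p = 0.0399), and no library of one group came near the other. IFT52, a scaffold subunit, stood at 54.8 and 58.0 CPM in the knockdown and at 19.0 and 27.8 CPM in the control (log2 fold change 1.27, SE 0.27, edgeR adjusted p = 0.0594). IFT46, its partner in the core, stood at 51.0 and 47.5 CPM in the knockdown and at 24.7 and 27.0 CPM in the control (0.93, SE 0.23, edgeR adjusted p = 0.079). Neither passed the threshold, although the groups lay apart.

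The tubulin-binding pair IFT74 and IFT81 had log2 fold changes of 1.10 and 0.60. IFT74 held 20.4 and 27.7 CPM in the knockdown, against 11.3 and 11.2 CPM in the control, so its control libraries nearly coincided. IFT88, whose mouse counterpart is the gene mutated in the Oak Ridge polycystic kidney line, held 24.5 and 23.6 CPM in the knockdown and 13.8 and 11.1 CPM in the control (log2 fold change 0.95). The GTPase-like subunit IFT22 was at 0.30 with separated groups, and HSPB11, the partner of IFT27 also called IFT25, was at 0.032 with groups that overlapped (15.8 and 24.5 CPM in the knockdown, 17.9 and 21.6 CPM in the control). IFT27 and HSPB11 form a dimer in the train, and in these libraries their values lay far apart, 1.79 (SE 0.30) and 0.032 (SE 0.31), with no test made of that difference. Over this complex, 6 of 8 genes had an unadjusted p under 0.05 and DESeq2 called 4 higher.

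Peripheral IFT-B genes, whose products attach to the core and contact the motors, had a median of 0.71 over 6 genes, all positive, with groups apart in 5. IFT57, an adaptor that joins the train to kinesin-2, rose 2.33-fold, with 62.9 and 58.3 CPM in the knockdown libraries and 26.0 CPM in each control library (log2 fold change 1.22, SE 0.23, edgeR adjusted p = 0.0467). This call ended without control replicate 1 (edgeR adjusted p = 0.111), without control replicate 2 (0.101) and with a filter at a mean of 5 CPM (0.0513), while the log2 fold change stayed between 1.21 and 1.22 there. TRAF3IP1, also called IFT54, a microtubule-binding subunit, had 22.6 and 17.98 CPM in the knockdown and 10.9 and 11.2 CPM in the control (0.88, SE 0.28, edgeR adjusted p = 0.128). IFT172, the largest subunit, had 49.4 and 38.2 CPM in the knockdown and 28.4 and 21.3 CPM in the control (0.82, SE 0.28, edgeR adjusted p = 0.141).

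The remaining peripheral genes were closer to the control level. CLUAP1, or IFT38, stood at 0.60 and IFT20, a subunit that also works at the Golgi, at 0.51, both with separated groups. IFT80, a subunit with WD repeats, stood at 0.29, and its knockdown library at 37.8 CPM lay just under the control library at 38.4 CPM. In GENCODE 29, which is not the annotation of these counts, 46.6% of the exon bases of IFT80, 23.8% of those of IFT20 and 16.8% of those of CLUAP1 are shared with another gene, and the strand setting of the counting is not given, so those reads may be lost or shared.

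In IFT-A, the complex of retrograde trains and of membrane protein entry, 5 of 6 genes were positive and the median was 0.37, with none past the threshold in edgeR (1 at an unadjusted p under 0.05) or in DESeq2. IFT43, a small peripheral subunit, had 18.8 and 14.6 CPM in the knockdown and 8.87 and 7.35 CPM in the control (log2 fold change 1.04, SE 0.31, edgeR adjusted p = 0.111). IFT140, of the core, had 49.6 and 29.4 CPM in the knockdown and 28.0 and 16.2 CPM in the control (0.84, SE 0.38, edgeR adjusted p = 0.233), so replicate 1 was the higher library in each group. TTC21B, or IFT139, was the exception, with 14.4 and 21.0 CPM in the knockdown and 25.4 and 26.8 CPM in the control (−0.56, SE 0.29, edgeR adjusted p = 0.294). It was the only one of the 51 whose knockdown libraries both lay below the control libraries. The genes IFT122 (0.50), WDR35 (0.25) and WDR19 (0.25) had small values with groups apart. WDR35 was the highest of the complex in CPM, at 93.2 and 99.99 CPM in the knockdown and 77.9 and 84.5 CPM in the control (edgeR adjusted p = 0.51).

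Dynein-2, the motor that returns trains to the cell body, had a median of 0.44 over 4 genes, with none past the threshold in edgeR (1 at an unadjusted p under 0.05) or DESeq2. DYNC2LI1, its light intermediate chain, had 16.4 and 20.1 CPM in the knockdown and 9.71 and 7.43 CPM in the control (log2 fold change 1.09, SE 0.31, edgeR adjusted p = 0.0998). DYNC2H1, the motor heavy chain, had 80.5 and 131.8 CPM in the knockdown and 61.8 and 74.5 CPM in the control (0.64, SE 0.29, edgeR adjusted p = 0.24), a value that was 0.24 without knockdown replicate 2 and 0.96 without knockdown replicate 1. The groups of both genes lay apart. The intermediate chain genes did less: WDR34 had 76.0 and 70.5 CPM in the knockdown and 54.5 and 68.9 CPM in the control (0.25, SE 0.23, edgeR adjusted p = 0.564), and WDR60 had 48.3 and 34.9 CPM in the knockdown and 63.0 and 27.0 CPM in the control (−0.11, SE 0.42, edgeR adjusted p = 0.902). The control libraries of WDR60 lay on either side of both knockdown libraries, and its sign turned positive without knockdown replicate 2 (0.11) or control replicate 1 (0.63).

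BBSome genes stood close to the control level. Over 9 tested genes, which include the subunits, the chaperonin-like factors BBS10 and BBS12 that help to assemble the complex, and ARL6, the GTPase that brings it to membranes, the median was 0.18. The groups overlapped in 6 (66.7%), beside 45.7% of all genes tested. None passed the threshold in edgeR or DESeq2, and none had an unadjusted p under 0.05. BBS7 had 24.1 and 23.7 CPM in the knockdown and 16.7 and 16.3 CPM in the control (log2 fold change 0.53, SE 0.25, edgeR adjusted p = 0.253), the tightest of these genes. BBS2, which pairs with BBS7 in the complex, had 88.1 and 83.7 CPM in the knockdown and 75.9 and 56.8 CPM in the control (0.37, SE 0.24, edgeR adjusted p = 0.387). BBS12 had 5.23 and 7.27 CPM in the knockdown and 3.13 and 4.95 CPM in the control (0.62, SE 0.39, edgeR adjusted p = 0.384). In these 3 genes alone (33.3%) both knockdown libraries lay above the control libraries, beside 27.5% of all genes tested.

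BBS5, a subunit that binds phosphoinositides, had 12.6 and 4.94 CPM in the knockdown and 6.05 and 3.17 CPM in the control (0.93, SE 0.54, edgeR adjusted p = 0.351), so its replicates differed by more than its groups, and 28.7% of its exon bases are shared with another gene in GENCODE 29. TTC8 (0.18), BBS10 (0.18), BBS9 (0.14), ARL6 (−0.03) and BBS4 (−0.15) had values within 1 SE of 0. BBS1, the subunit that binds ARL6, had only 4 and 1 counts in the knockdown libraries and 4 and 1 in the control libraries and was not tested. In GENCODE 29, 91.2% of its exon bases are shared with an unnamed locus on the same strand or with ZDHHC24 on the other, which counting rules can leave unassigned. The part of this in its low count was not tested.

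Transition zone genes were the largest group and all 14 were positive, with a median of 0.78. In 12 the groups lay apart, and 8 had an unadjusted p under 0.05, but none passed the adjusted threshold in edgeR, while DESeq2 called 3 higher. B9D1, a B9-domain protein of the Meckel module, had 41.4 and 28.7 CPM in the knockdown and 14.6 and 9.51 CPM in the control (log2 fold change 1.54, SE 0.33, edgeR adjusted p = 0.0603). TCTN1, the first of the tectonic genes and one of the 5 with an X-box, had 31.9 and 26.7 CPM in the knockdown and 12.2 and 11.4 CPM in the control (1.31, SE 0.27, edgeR adjusted p = 0.0559). TMEM67, which encodes the receptor-like membrane protein meckelin, had 22.4 and 18.1 CPM in the knockdown and 8.77 and 9.75 CPM in the control (1.13, SE 0.29, edgeR adjusted p = 0.0805). Each of these 3 sat just above the threshold, and DESeq2 called all 3.

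The other tectonics had lower values than TCTN1, 0.80 for TCTN2 and 0.64 for TCTN3. TCTN3 was the highest transition zone gene in CPM, at 122.4 and 118.0 CPM in the knockdown and 72.8 and 81.9 CPM in the control (SE 0.21, edgeR adjusted p = 0.136). RPGRIP1L, a scaffold at the base of the transition zone, stood at 1.08 and the membrane protein genes TMEM231 and TMEM216 at 1.05 and 0.80, with all their knockdown libraries above the control libraries. B9D2 (0.76), AHI1 (0.58), CC2D2A (0.51) and MKS1 (0.36) were also apart. CEP290, the protein that ties the membrane to the microtubules there, had 20.3 and 42.8 CPM in the knockdown and 20.5 and 21.7 CPM in the control (0.58, SE 0.38), so the difference rested on knockdown replicate 2. NPHP4, of the nephronophthisis module, stood at 0.10 with overlapping groups. In GENCODE 29 the exon bases shared with other genes are 14.5% for TCTN1, 13.3% for TMEM231 and 11% for TCTN2, so part of their reads may be lost or shared.

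Among the 4 genes of cargo release and the basal body, 2 lay apart and 2 overlapped, and none passed the threshold in edgeR, while 2 had an unadjusted p under 0.05 and DESeq2 called 1. CEP164, the distal appendage protein that docks the centriole to the membrane, had 98.6 and 67.5 CPM in the knockdown and 40.0 and 42.0 CPM in the control (log2 fold change 1.02, SE 0.26, edgeR adjusted p = 0.0847). ARL3, the GTPase that releases lipidated cargo inside the cilium, had 54.1 and 65.2 CPM in the knockdown and 33.7 and 36.4 CPM in the control (0.77, SE 0.24, edgeR adjusted p = 0.121). INPP5E, a phosphoinositide phosphatase that is such a cargo, had 31.8 and 19.9 CPM in the knockdown and 24.5 and 26.7 CPM in the control (0.011, SE 0.30, edgeR adjusted p = 0.987), and −0.0066 with upper-quartile scaling, so it has no direction. OFD1, a protein of centrioles and centriolar satellites, had 38.9 and 33.3 CPM in the knockdown and 52.9 and 34.2 CPM in the control (−0.27, SE 0.29, edgeR adjusted p = 0.616), and 0.082 without control replicate 1.

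**Figure D2:**
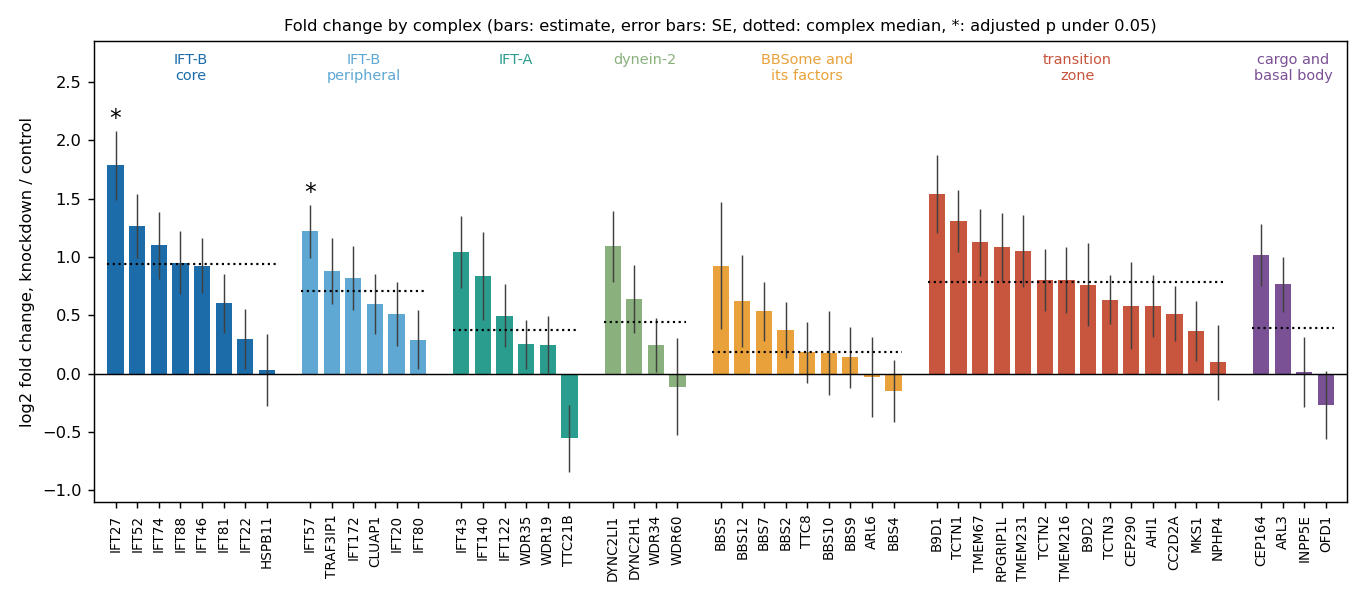
Log2 fold change of knockdown over control for the 51 tested genes, grouped by complex; bars are edgeR estimates, error bars their SE, dotted lines the median of each complex, and stars the 2 genes with an adjusted p under 0.05. The IFT-B and transition zone bars are all positive, while the medians of IFT-A (0.37) and the BBSome group (0.18) are lower.

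Set side by side, the complexes fall in the order IFT-B core (0.94), transition zone (0.78), peripheral IFT-B (0.71), dynein-2 (0.44), cargo and basal body (0.39), IFT-A (0.37) and BBSome (0.18), as medians of the log2 fold change. Their ranges overlap widely: the IFT-B core ran from 0.032 to 1.79, the transition zone from 0.10 to 1.54 and IFT-A from −0.56 to 1.04. Single genes had SEs between 0.21 and 0.54. The order is a description of a list chosen with these results known, and no test was made between complexes.

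The order was partly tied to single libraries. The BBSome median was 0.0575 without knockdown replicate 2 and 0.31 without knockdown replicate 1, where the cargo and basal body group stood lower, at 0.19. Dynein-2 had a median of 0.27 without knockdown replicate 2 and of 0.60 without control replicate 2. The median over all 51 genes, by contrast, ran only from 0.54 to 0.63 when any library was left out.

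**Figure D3:**
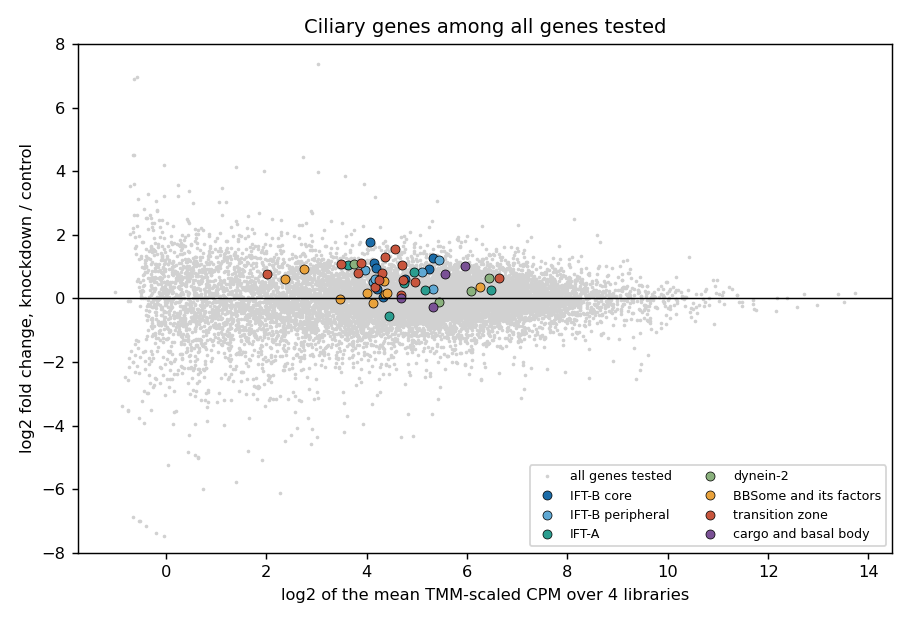
Log2 fold change of knockdown over control against the log2 of the mean TMM-scaled CPM over the 4 libraries, with all 13022 tested genes in grey and the ciliary genes coloured by complex. The ciliary genes sit at low to middle levels, mostly above the line at 0, and within the spread of all genes at their level.

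Levels between genes were compared per kilobase of merged GENCODE 29 exons, a scale in CPM per kilobase that is only approximate because the annotation of the counts is not given. On this scale the dynein-2 intermediate chain gene WDR34 was highest in both groups, at 41.7 ± 2.21 in the knockdown and 35.2 ± 5.82 in the control (SD, n = 2). TCTN3 followed, at 40.1 ± 1.04 in the knockdown and 25.8 ± 2.16 in the control, and its libraries overlapped those of WDR34 in the knockdown but not in the control. BBS2 was next in the control, at 25.3 and 18.9, where it overlapped TCTN3, and had 29.3 and 27.9 in the knockdown. DYNC2H1, among the highest in CPM, has 14.339 kb of exons and stood at 7.40 ± 2.52 in the knockdown and 4.75 ± 0.63 in the control per kilobase. At the low end RPGRIP1L had 1.42 ± 0.064 in the knockdown and 0.671 ± 0.057 in the control. Subunits of the same complex differed widely, mean levels of IFT-B core genes spanning 7.29 to 32.1 in the knockdown and 3.94 to 13.8 in the control.

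A list of related ciliary genes outside the 52 was drawn up from known complexes, with earlier results of these data known. Of 20 other IFT, BBS and transition zone genes, 19 were tested and 14 were positive, with a median of 0.31. The groups lay apart upward in 11 and downward in 2, and none passed the threshold in edgeR (3 higher and 0 lower at an unadjusted p under 0.05) or DESeq2. TTC30A, an IFT-B core gene with the near-identical copy TTC30B, had 6.66 and 5.77 CPM in the knockdown and 2.82 and 2.86 CPM in the control (log2 fold change 1.12, SE 0.35, edgeR adjusted p = 0.121), and reads of both copies may be shared. No test was made of the difference between this list and the 52.

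The motors gave no single direction. Of 5 kinesin-2 genes 4 were positive, with a median of 0.37 and none past the threshold in edgeR (1 higher and 1 lower at an unadjusted p under 0.05) or DESeq2. KIFAP3, the adaptor subunit of the anterograde motor, had 10.1 and 15.4 CPM in the knockdown and 24.8 and 27.1 CPM in the control (log2 fold change −1.02, SE 0.31, edgeR adjusted p = 0.114), opposite in sign to the motor subunits KIF3A (0.37) and KIF3B (0.19). KIF3C (0.64) and KIF17 (2.03) had both knockdown libraries above the control libraries. KIF17 rested on few counts, 37 and 18 in the knockdown and 6 and 7 in the control. It passed the filter on low counts through the knockdown libraries alone, so its direction is no result. It is among the 4 positive genes and is the 1 higher at an unadjusted p under 0.05. In the 5 light chains that dynein-2 shares with cytoplasmic dynein the median was −0.11 with none past the threshold in edgeR (1 higher at an unadjusted p under 0.05) or DESeq2, and DYNLL2 had 169.7 and 159.5 CPM in the knockdown and 103.3 and 101.2 CPM in the control (0.69, SE 0.20, edgeR adjusted p = 0.111).

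Basal body and appendage genes were split, 8 positive and 6 negative of 14, with a median of 0.0135 and none past the threshold in edgeR (3 higher at an unadjusted p under 0.05; DESeq2 called 1 higher). The distal appendage gene FBF1 had 14.0 and 9.44 CPM in the knockdown and 3.13 and 4.87 CPM in the control (log2 fold change 1.53, SE 0.39, edgeR adjusted p = 0.0802). Of 12 genes of ciliary membrane trafficking, UNC119B alone rose. UNC119B, a carrier of myristoylated cargo that ARL3 unloads, had 130.7 and 135.4 CPM in the knockdown and 59.4 and 62.7 CPM in the control (2.18-fold, SE 0.21 on the log2 scale, edgeR adjusted p = 0.0452). Its call ended without control replicate 1 (edgeR adjusted p = 0.118) or control replicate 2 (0.0827), where the log2 fold change was 1.09 and 1.16, against 1.12 over all 4 libraries. The median of the 12 was −0.10.

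Hedgehog pathway genes had values on both sides. Of 12, 10 were tested. In 3 (30%) the groups lay apart upward, beside 27.5% of all genes tested, and in 4 downward, beside 26.8%. The median was −0.42 with none past the threshold in edgeR (1 higher and 3 lower at an unadjusted p under 0.05) or DESeq2. PTCH1, the receptor gene that is also a target of the pathway, had 13.1 and 14.3 CPM in the knockdown and 31.7 and 22.4 CPM in the control (log2 fold change −0.98, SE 0.29, edgeR adjusted p = 0.112). The transducer gene SMO had no count in either knockdown library or in control replicate 1 and 3 counts in control replicate 2.

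**Figure D4:**
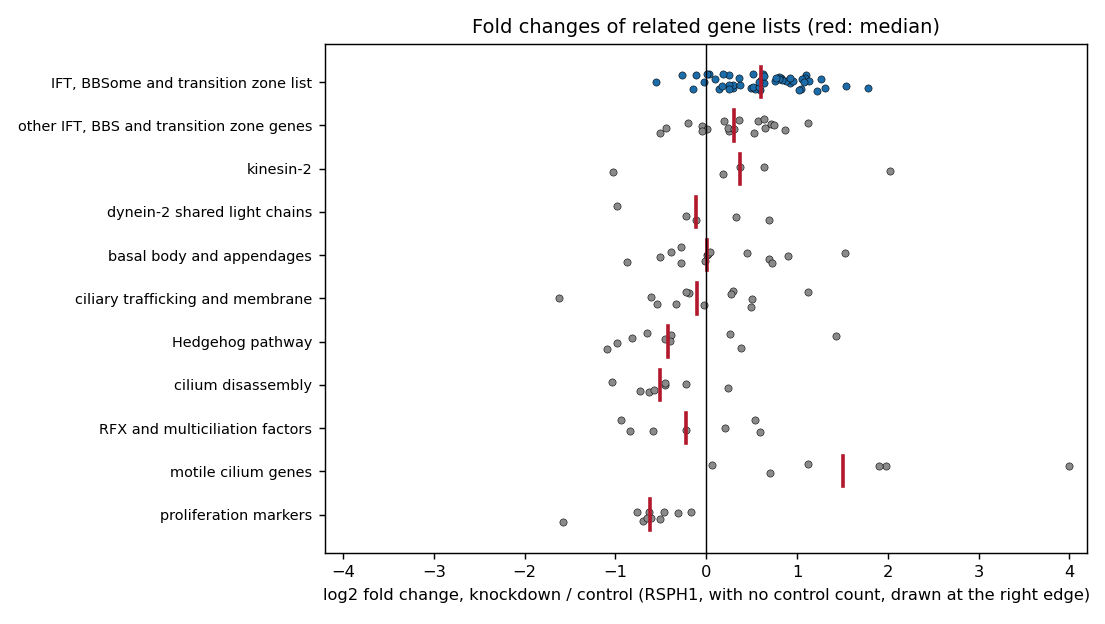
Log2 fold change of knockdown over control for each tested gene of the ciliary list (blue) and of related lists (grey), 1 point per gene, with the median of each list in red; RSPH1, which had no control count, is drawn at the right edge. The ciliary list has a median of 0.60, the Hedgehog list one of −0.42 and the proliferation markers one of −0.62.

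Genes of motile cilia, which mark multiciliated cells, were mostly low. Of 15, 6 passed the filter on low counts, all positive, with a median log2 fold change of 1.51. RSPH1, described below, is among the 6 and in this median, although it passed the filter through the knockdown libraries alone. The others had counts in every library: CCDC40 (1.98), CCDC113 (1.90), HYDIN (1.12), LRRC6 (0.70) and DNAH5 (0.07), none past the edgeR threshold. Their middle value was that of HYDIN. Of these others, CCDC40, CCDC113 and HYDIN had an edgeR unadjusted p under 0.05, all higher, beside 11.5% of all genes tested. DESeq2 called 3 of the 6 higher, RSPH1 among them. CCDC113 had 11.4 and 8.54 CPM in the knockdown and 2.19 and 3.09 CPM in the control. DNAH5 had 16.5 and 15.1 CPM in the knockdown and 20.8 and 9.59 CPM in the control. The list summed to 61.8 and 40.7 CPM in the knockdown libraries and 36.4 and 19.9 CPM in the control libraries. Of this list DNAH9, DNAI2 and DNAAF1 had no count in any library, and neither had FOXJ1, the master factor of motile ciliation. RSPH1, a radial spoke gene, had 16 and 14 counts in the knockdown and 0 in both control libraries, at least 9.43-fold higher when set against 3 counts over the control group. It passed the filter through the knockdown libraries alone, so its p-value is not given. The part of such cells in the other ciliary values was not tested.

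Proliferation markers differed widely between the libraries. All 10 had a negative log2 fold change, with a median of −0.62, but the groups overlapped in 9, and the list summed to 356.4 and 1107 CPM in the knockdown libraries and 626.7 and 1658 CPM in the control libraries. None passed the threshold in edgeR (1 lower at an unadjusted p under 0.05), while DESeq2 called TYMS, the thymidylate synthase gene, lower; it had 14.8 and 37.1 CPM in the knockdown and 44.9 and 110.5 CPM in the control (log2 fold change −1.58, SE 0.55, edgeR adjusted p = 0.15). Replicate 2 was the higher library for all 10 in both groups, by a median of 1.61 in the knockdown and 1.505 in the control on a log2(CPM + 0.5) scale. Of 8 genes that drive cilium disassembly, most of them mitotic kinases or their partners, 7 were negative, with a median of −0.51 and none past the threshold in edgeR, also at an unadjusted p under 0.05, or in DESeq2; KIF2A, a microtubule depolymerase, had 24.4 and 42.9 CPM in the knockdown and 47.2 and 65.0 CPM in the control (−0.73, SE 0.34, edgeR adjusted p = 0.243).

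The ciliary genes did not follow that split between replicates. Their median difference of replicate 2 minus replicate 1 was −0.06 in the knockdown and 0.08 in the control, with replicate 1 the higher in 28 of 51 genes in the knockdown and in 20 of 51 in the control. As medians of the deviation from each gene's own mean they stood at 0.27 and 0.28 in the knockdown libraries and at −0.30 and −0.28 in the control libraries, while the proliferation markers stood at −1.17 and 0.56 in the knockdown and at −0.47 and 1.03 in the control. Within each replicate number, the proliferation median was lower in the knockdown than in the control (−1.17 and −0.47 in replicate 1, 0.56 and 1.03 in replicate 2). The ciliary median was higher in the knockdown within each number (0.27 and −0.30 in replicate 1, 0.28 and −0.28 in replicate 2). Across numbers, knockdown replicate 2 was above control replicate 1 on the proliferation markers (0.56 and −0.47) and also on the ciliary genes (0.28 and −0.30). The part of proliferation in the ciliary difference was not tested beyond these values.

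**Figure D5:**
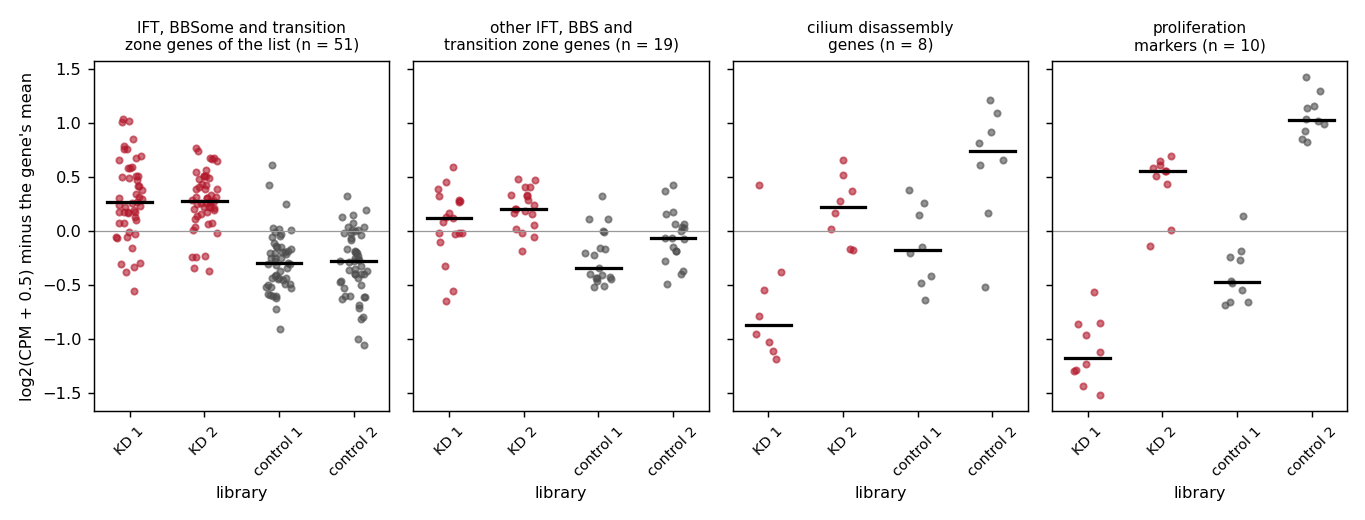
Deviation of log2(CPM + 0.5) from each gene's mean over the 4 libraries, 1 point per gene and library, with knockdown (KD) in red, control in grey and medians as black lines. The medians of the ciliary list separate by group. Those of the other IFT, BBS and transition zone genes do so too, but replicate 2 was the higher in both groups for 11 of these 19 genes and replicate 1 for 0. The disassembly genes and proliferation markers separate by replicate number, with groups that overlap in 6 of 8 and 9 of 10 genes. Within each replicate number, the knockdown median of both lists lies below the control median.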

How the data were processed

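The authors deposited a table of raw counts per gene (whole numbers, with unequal totals over the 4 libraries). Total RNA (Trizol) went into an Illumina TruSeq RNA kit, per the labels' protocols. Tools named in the submitters' processing notes are STAR 2.5.2b, HTSeq 0.6.1, limma and cutadapt; hg19 and GRCh37 are the builds listed there, with no roles. No source used here gives the annotation or strand setting. Replicates were not duplicates of each other (chi-square over degrees of freedom 44.5 in the knockdown and 40.4 in the control), and each library counted as a sample.

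From these counts, all genes passing filterByExpr (minimum count 10, minimum total 15; 13022 genes) were fitted with TMM factors and glmQLFTest (edgeR 4.0.16, R 4.3.3) for knockdown against control without covariates, and p-values were Benjamini-Hochberg adjusted over all of them. Tested on simulated data of this design, the fit called 15 of 99 genes given a log2 change of 1 and 87 of 96 given one of 2. DESeq2 1.42.0 was an alternative. The genes and lists were chosen with earlier results of these data known. Genes given in full were TRMT13, called ciliary genes, in each complex the 3 with the smallest p (all, in complexes of 4) and the highest in CPM, and in related lists those called (RSPH1 without its p) or the 1 with the smallest p; the others named were added after their values were seen. Motifs were searched in RefSeq promoters (GRCh38.p14), and exon lengths came from GENCODE 29 on GRCh38.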

Additional observations from a re-analysis of the deposited data

How the results depend on the processing

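The count of ciliary genes called higher depended on the processing, and the sign of their median did not in the alternatives run, with 43 to 47 genes positive. Against 2 of 51 in edgeR with TMM, 13 of 52 were called higher with no filter on low counts, 9 of 51 with DESeq2 and 1 of 50 with a filter at a mean of 5 CPM; the same 2 were called under library size alone, upper-quartile scaling or the size factors of DESeq2. The share of all genes called higher moved as well, to 4.43% with no filter and 3.52% with DESeq2 (all genes called in either direction: 1949 and 1129, against 389). Leaving out each library in turn gave 2 to 7 ciliary genes called higher and 678 to 935 genes in all. The median log2 fold change of the ciliary genes was 0.60 with DESeq2 size factors and with the DESeq2 test, 0.58 with upper-quartile scaling, 0.63 with library size alone, 0.59 with the filter at 5 CPM and 0.54 to 0.63 without any one library. After a correction for GC content and exon length, added after seeing the data, it was 0.69. IFT27 was called in all 11 alternatives that gave a test. Signs turned in 9 ciliary genes, none of them past the threshold there (smallest edgeR adjusted p 0.54). They were INPP5E (−0.0066 with upper-quartile scaling, −0.028 with the replicate block and −0.36 to 0.31 without any one library), WDR60 (−0.60 to 0.63) and OFD1 (−0.55 to 0.082), and, without 1 library, CEP290 (−0.056), HSPB11 (−0.32), BBS10 (−0.34) and BBS9 (−0.0026) without knockdown replicate 2, HSPB11 also without control replicate 1 (−0.092), NPHP4 (−0.35) without knockdown replicate 1, and ARL6 (0.26 without knockdown replicate 1, 0.16 without control replicate 2); the cause was not tested.

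The labels do not say that equal replicate numbers share a batch, so the samples are taken to share only a number, although library numbers in the titles run consecutively within each replicate number. Deviations from the group means of equal numbers correlated with r = 0.66 across genes. With the replicate number as a block, 31 ciliary genes were called higher and 1 lower (TTC21B), beside 19.3% and 20.8% of all genes (5227 in all), and the median was 0.61. With 2 libraries a group and about 9.58 to 13.4 counts per CPM, genes such as BBS1 cannot be assessed.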

Other observations

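Factors that bind the X-box or switch on ciliation were examined as values only. Of 12 such genes 7 were tested, 3 positive and 4 negative, with a median log2 fold change of −0.22 and none past the threshold in edgeR (0 higher and 2 lower at an unadjusted p under 0.05) or DESeq2. RFX5, best known as a regulator of MHC class II genes, had 55.9 and 60.1 CPM in the knockdown and 93.2 and 81.7 CPM in the control (log2 fold change −0.59, SE 0.22, edgeR adjusted p = 0.168), and RFX7 had 39.2 and 70.0 CPM in the knockdown and 87.1 and 107.7 CPM in the control (−0.83, SE 0.32, edgeR adjusted p = 0.177). RFX3, a regulator of primary cilium genes in mouse, had 13.2 and 17.7 CPM in the knockdown and 14.8 and 11.9 CPM in the control (0.21, SE 0.30, edgeR adjusted p = 0.715), and RFX2, a relative with a role in motile and sperm cilia, had 30.0 and 23.97 CPM in the knockdown and 16.5 and 19.3 CPM in the control (0.59, SE 0.27, edgeR adjusted p = 0.239). RFX5 and RFX7 had all knockdown libraries below the control libraries, RFX2 had them above, and RFX3 overlapped. RFX4 had 1 count in all and RFX6 none.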
